A study of Mus musculus with 2 samples.

Results

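Activated helper T cells without Foxp3 made up 417 of the 8664 cells kept from 2 single-cell RNA libraries of the mouse parotid gland. They were picked by their transcripts, counted by the unique molecular identifier (UMI) that each captured RNA molecule carries. A cell belonged if it had at least 1 UMI of Cd3d, Cd3e or Cd3g (the CD3 chains of the T-cell receptor complex), none of Cd8a or Cd8b1, none of Foxp3 or Ikzf2 and at least 3 UMIs summed over 6 activation genes, which were Tnfrsf4, Tnfsf8, Izumo1r, Icos, Pdcd1 and Maf. It also had no UMI of Cd163l1 or Trdc, genes of gamma-delta T cells, and fewer than 3 of the B-cell genes Cd79a, Cd79b and Ms4a1. The control library held 114 of these cells among 3378 kept cells, and the irradiated (IR) library held 303 among 5286.

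Both libraries came from female wild-type C3H mice, and each pooled the parotid glands of 2 mice. The IR mice received 6 Gy a day to the head and neck on 5 consecutive days, 30 Gy in total, when they were 6 to 10 weeks of age, and glands were collected 10 months later. The control mice were not irradiated. With 1 library per condition no test between conditions was possible, and none was made between cell classes, so every interval below is a 95% counting interval and does not hold the variation between mice.

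Helper T cells read antigen through the T-cell receptor with the help of CD4, and an antigen-experienced helper cell keeps costimulatory receptors that a resting cell lacks. Icos and Tnfrsf4 (OX40) are such receptors, Tnfsf8 (CD30 ligand) is a surface ligand of activated T cells, Izumo1r (folate receptor 4) marks regulatory and anergic or follicular helper cells, Pdcd1 (PD-1) is an inhibitory receptor and Maf is a transcription factor of several helper types. Regulatory T cells carry most of these molecules as well and are told apart by the transcription factor Foxp3, and in part by Ikzf2 (Helios). In chronically injured salivary glands helper T cells are part of the lymphocyte infiltrate.

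The label was checked against other T-cell genes. A receptor chain transcript (Trac, Trbc1 or Trbc2) was found in 113 of the 114 control cells and 302 of the 303 IR cells. The rule itself used the CD3 genes, and at least 2 CD3 UMIs were found in 105 and 285. Cd4 itself was detected in only 35 control cells (30.7%) and 88 IR cells (29.0%), and Cd4 or the helper ligand Cd40lg in 40 and 103. Cd4 was also sparse in the Foxp3 T cells of these libraries, at 24.3% and 19.0% of cells, and B cells had a Cd4 UMI in 0 and 3 cells. Hence most of the cells were called helper cells from the absence of Cd8 transcripts, and cells that lack both co-receptors cannot be told apart from them.

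Regulatory cells are the main class that a missed Foxp3 UMI could hide. Before Foxp3 and Ikzf2 were considered, 269 control and 591 IR cells had a CD3 UMI and reached the marker threshold, and 111 and 218 of these had a Foxp3 or an Ikzf2 UMI. Ikzf2 removed more cells than Foxp3 did, since 70 control and 132 IR cells carried Ikzf2 with no Foxp3 UMI. Of the cells that remained, 21 control cells (18.4%, interval 11.8 to 26.8) and 36 IR cells (11.9%, 8.46 to 16.1) had a UMI of Il2ra, Ikzf4 or Gpr83, genes that regulatory cells express. The same genes were found in 54.1% and 40.0% of Foxp3 T cells and in 0.646% and 1.04% of B cells. Il2ra is also induced on activated conventional T cells, so the genes do not separate the possibilities.

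Defining genes of natural killer, innate-like and myeloid cells were looked up in these cells. Ncr1, Klrb1c, Klre1, Klra4 and Klra8 (natural killer cells) and Trav11 (invariant natural killer T cells) had no UMI in either library. No alpha-chain V segment of any kind was detected in 97 of the control and 266 of the IR cells. The absence of Trav11 therefore cannot exclude invariant cells. Tyrobp, an adaptor that natural killer and myeloid cells share, had 32 UMIs in 3 control cells and 55 in 8 IR cells, and Gzma had 1 UMI in control and 7 in 1 IR cell. Zbtb16, a transcription factor of innate-like T cells, had 5 UMIs in 2 control cells and 5 in 3 IR cells. Of the gamma-delta genes outside the rule, Tcrg-C1 had 1 UMI in control and 0 in IR, Tcrg-C2 had 0 and 5, Tcrg-C4 had 3 and 5, and Trdv4 had 0 and 1. Macrophage genes (Lyz2, Csf1r, Adgre1, Cd68 and C1qa) were present in 8 and 10 cells, with at least 3 UMIs in 3 and 2 of them, and these few cells return below wherever they carry a value.

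Median depth was 2970 UMIs in control and 2569 in IR, with 1144 and 1096 genes detected per cell. The range was 698 to 19542 UMIs in control and 606 to 29212 in IR, and the summed depth was 413971 and 981575 UMIs. RNA of other cells was present in the droplets. Transcripts of the secretory and duct list, of which Bpifa2 (a parotid secretory protein) had the most, took 9.25% of the control and 4.47% of the IR UMIs, and haemoglobin transcripts took 2.11% and 0.449%. A pair of control cells held 2778 and 2466 Hbb-bs UMIs, and the top 5 cells held 96.7% of all Hbb-bs UMIs in that library and 88.9% in the IR library. The 2 libraries shared 12 barcodes in all and none of them was one of these cells.

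The cells formed 3.37% (2.79 to 4.04) of the kept control cells and 5.73% (5.12 to 6.39) of the kept IR cells, a ratio of 1.70. T cells as a whole made up 37.4% of kept control cells and 57.7% of kept IR cells, a ratio of 1.54. Among T cells, the activated helper cells were 9.01% (7.49 to 10.7) in control and 9.94% (8.90 to 11.1) in IR, a ratio of 1.10 with overlapping intervals. Among T cells with no Cd8 UMI they were 13.2% (11 to 15.6) and 13.6% (12.2 to 15.1). The larger share of all kept cells in the IR library therefore stood beside a larger share of T cells. A difference between the conditions within the T cells was not tested, since each condition had 1 library. Foxp3 T cells were 2.92% and 3.44% of T cells, resting Cd4 T cells 5.06% and 4.79%, and effector CD8 T cells 17% and 14.6%.

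The 6 markers chose the cells, so their values are given as a description. UMIs count molecules at their 3′ end, so they do not scale with the length of a gene. Icos (chr1:60977927-61000320, plus strand, GRCm38) had the most UMIs, 316 in control and 959 in IR, and was found in 76.3% and 85.8% of the cells. Tnfsf8 (chr4:63831308-63861347, minus strand) had 248 and 525 UMIs in 53.5% and 48.8% of the cells. Tnfrsf4 (chr4:156013843-156016612, plus strand) had 110 and 281 UMIs in 41.2% and 37.6%. Icos and Tnfsf8 had the most UMIs of the 6 in both libraries. Izumo1r (chr9:14885814-14903949, minus strand) had 79 and 337 UMIs in 40.4% and 53.8% of the cells. Maf (chr8:115682942-115707794, minus strand) had 71 and 233 UMIs in 30.7% and 38.0%, and Pdcd1 (chr1:94038305-94052553, minus strand) had 29 and 33 in 12.3% and 6.93%. Pdcd1 was thus the rarest of the 6 in both libraries. In B cells, at a median of 2539 and 2190.5 UMIs, none of the 6 genes was found in more than 1.83% of the cells.

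**Figure D1:**
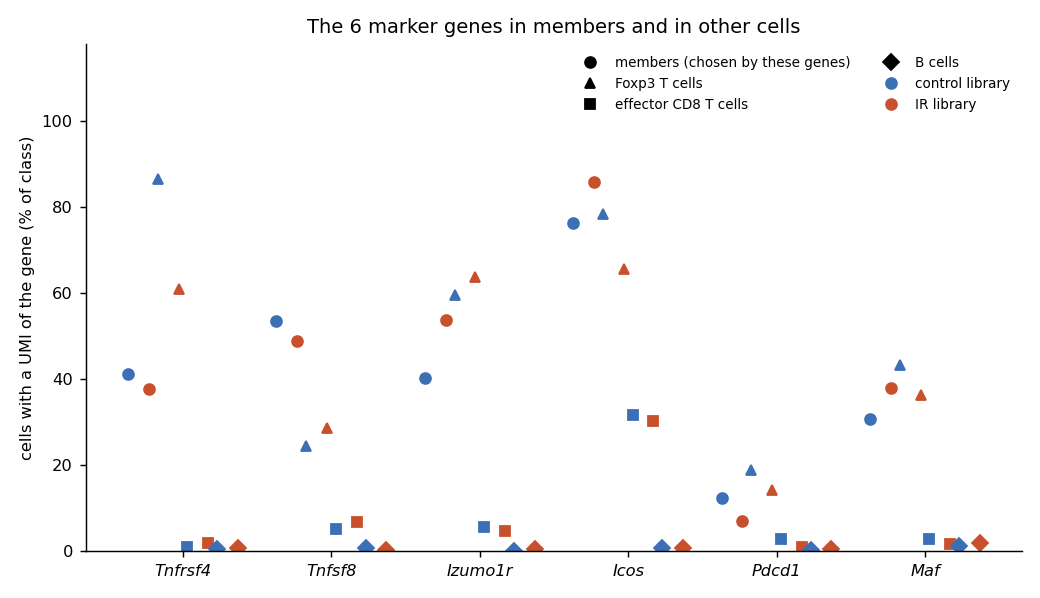
Percentage of cells (vertical axis) with at least 1 UMI of each of the 6 marker genes in activated helper T cells, Foxp3 T cells, effector CD8 T cells and B cells, with control in blue and IR in red. Icos reached 76.3% and 85.8% of the activated helper cells, Tnfrsf4 was most frequent in Foxp3 T cells, and B cells stayed at or under 1.83% for every marker.

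The markers occurred in varied sets. A single marker carried 15 control and 35 IR cells, 2 markers were found in 44 and 109, 3 in 36 and 88, 4 in 16 and 52, 5 in 3 and 18, and all 6 in 0 and 1. The pair most often seen together was Tnfsf8 with Icos in control (44 cells) and Izumo1r with Icos in IR (138 cells, against 27 in control). The median marker sum was 5 in control and 6 in IR, and the highest were 35 and 38. Just inside the threshold, at a sum of 3, lay 26 control and 79 IR cells, and just outside it, at a sum of 2, lay 64 and 175. There was no gap at the threshold, and cells with a sum of 2 or 3 were a broad part of the range.

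Among the classes with these markers, Foxp3 T cells had more Tnfrsf4 and fewer Tnfsf8 transcripts. Levels are given as CPM, the UMIs of a gene scaled to 1000000 summed UMIs of a class. The activated helper cells had 266 CPM of Tnfrsf4 in control and 286 in IR, which was 0.166 and 0.300 times the level of Foxp3 T cells. For Tnfsf8 they had 599 and 535 CPM, which was 2.07 and 3.10 times that level. Izumo1r, Icos, Maf and Pdcd1 were between 0.350 and 1.10 times the level of Foxp3 T cells in both libraries. The marker sum chose the activated helper cells but not the Foxp3 T cells, so these ratios are shaped by the rule and only describe it.

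The first comparison asked what else sets these cells apart from resting helper cells, taken as T cells with a Cd4 UMI, the same exclusions and none of the 6 markers (64 control and 146 IR cells, with a median of 2948 and 2381.5 UMIs). Transcripts of tissue memory and residence were higher in the activated cells, and some of the transcripts of naive cells were lower. Of 5864 genes with at least 30 UMIs, 270 (4.6%) were at least 2-fold higher in both libraries and 25 (0.426%) at least 2-fold lower, 5.03% in all. On this scale the median gene was already at a log2 ratio of 0.05 in control and 0.34 in IR, so values in the IR library should be read against that shift.

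The inhibitory receptor Ctla4, which competes with Cd28 for its ligands, stood out. It had 120 UMIs in 53 of the control cells and 467 in 163 of the IR cells, against 3 and 21 UMIs in resting cells. The ratio was 18.3 (6.11 to 89.96) in control and 9.06 (5.86 to 14.8) in IR. After every cell was thinned to 1000 UMIs, Ctla4 was found in 22.3% and 36.8% of the activated cells, in 3.12% and 6.25% of resting cells and in 0.132% and 0.803% of B cells. Ctla4 was not part of the rule, and the intervals of the thinned shares did not overlap between activated and resting cells in either library.

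Memory and residence genes formed the broadest group. Of 20 genes tested, 14 were at least 2-fold higher in both libraries and none lower, with a median log2 ratio of 2.11 in control and 2.19 in IR. With TMM scaling, which sets the totals so that most genes do not differ, 12 of 20 were higher. Cd44, the adhesion receptor of memory T cells, had 70 and 180 UMIs in the activated cells against 8 and 7 in resting cells, ratios of 4.0 and 10.5. Rgs1, a regulator of chemokine signals that is high in tissue T cells, had 216 and 639 UMIs against 11 and 72, ratios of 8.98 and 3.62. Itgb1, the beta-1 integrin chain, had 57 and 186 UMIs against 3 and 7, with ratios of 8.69 (2.83 to 43.4) and 10.8 (5.15 to 27.3). Adhesion, residence and chemokine-response genes were thus all in this group. The chemokine receptor Cxcr6 had 44 and 78 UMIs against 1 and 0, a ratio of 20.1 (3.43 to 813) in control and at least 10.6-fold higher in IR against a floor of 3 UMIs for the class. Cxcr3, a receptor of type 1 cells, had a ratio of 4.42 (1.37 to 22.7) in control and was at least 8.02-fold higher in IR. Vim, Ahnak, Anxa2, Lgals1, S100a4, S100a6 and Lgals3, which encode cytoskeletal, calcium-binding and galectin proteins of effector and memory cells, were also in the group, with ratios from 2.21 (Vim in IR) to 31.1 (8.45 to 259, S100a4 in control). Lgals3 had no UMI in control resting cells against 137 in the activated cells, which was at least 20.9-fold higher.

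Genes of naive and recirculating cells were mixed. Of 15 genes tested none was 2-fold higher in both libraries and 2 were lower, with a median log2 ratio of -0.39 and -0.35. Lef1, a transcription factor of naive T cells, had 82 and 247 UMIs in the activated cells and 140 and 270 in resting cells, ratios of 0.268 (0.201 to 0.354) and 0.373 (0.312 to 0.445). Igfbp4 had ratios of 0.257 (0.178 to 0.367) and 0.415 (0.314 to 0.550). Ccr7, the receptor that guides T cells to lymphoid tissue, was found in 61.4% and 66.3% of the activated cells, with 701 and 990 CPM, and its ratios were 0.819 (0.673 to 0.999) and 0.957 (0.852 to 1.08). Tcf7, a partner of Lef1, had ratios of 0.962 and 1.09. Neither Ccr7 nor Tcf7 was therefore past 2-fold in either library. S1pr1, which drives egress from tissue, had ratios of 0.697 and 0.503.

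**Figure D2:**
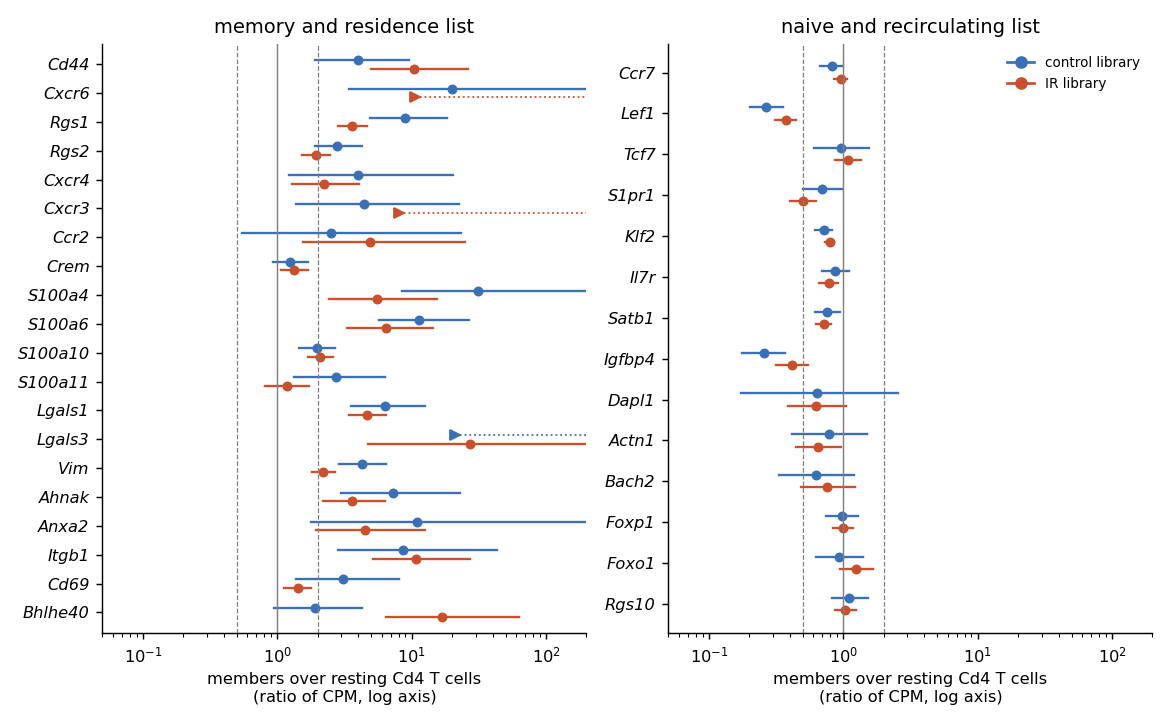
Ratio of CPM in activated helper T cells over resting Cd4 T cells (horizontal log axis) for 20 genes of memory and residence and 14 genes of naive and recirculating cells, with control in blue and IR in red. Lines are 95% counting intervals and stop at the edge of the axis, triangles give the ratio against a floor of 3 UMIs where resting cells had no UMI, and dashed lines mark 2-fold. Most memory genes lay to the right of 2-fold in both libraries, and Lef1 and Igfbp4 lay to the left.

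Transcripts that follow receptor signals were also higher in part. Of 15 receptor-induced genes 5 were at least 2-fold higher and none lower. The orphan receptor Nr4a2 had 55 and 150 UMIs against 6 and 20, ratios of 4.19 and 3.06. The nuclear factor genes Nfkb1 and Rel had ratios of 4.12 and 2.59, and of 2.42 and 2.74. Batf, a transcription factor of effector helper cells, had 24 and 85 UMIs and ratios of 2.20 (0.821 to 7.37) and 3.85 (1.93 to 8.71). Dusp4, a phosphatase of the MAP kinase pathway, had 18 and 72 UMIs and none in resting cells. In the costimulation and checkpoint list 4 of 14 genes were higher, which were Ctla4, Cd40lg, Tnfrsf9 (4-1BB) and Cd96. Cd40lg, the ligand by which helper cells activate B cells, had 7 and 33 UMIs against 1 and 4. None of the 20 dissociation and heat stress genes and none of 11 receptor and CD3 genes differed by 2-fold in both libraries.

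By rank, the other genes with the largest ratios in both libraries were Sla, an adaptor that dampens receptor signals, Serpinb1a, a protease inhibitor, Rora, a nuclear receptor, Ybx3 and Il17a. Sla had 28 and 122 UMIs against 1 and 2, ratios of 12.8 (2.12 to 524) and 24.9 (6.74 to 208). Rora was found in 58 control and 123 IR cells and had ratios of 7.69 (4.20 to 15.7) and 10.9 (6.14 to 21.3). On the low side the ranked genes other than Lef1 and Igfbp4 were Rras2, Cd55, Atp1b1, Pdlim4, Pglyrp1, Fbxo8, Ccdc117 and Ccdc85b. Fbxo8, Pglyrp1 and Ccdc85b had 5 UMIs each in the control activated cells and Ccdc117 had 4. The control intervals of these genes included 1, as did the IR interval of Ccdc85b (0.186 to 1.06). Rras2, a small GTPase, had ratios of 0.364 and 0.382, and Cd55, an inhibitor of complement, 0.398 and 0.389. Of 9 p53 targets 3 were higher than in resting cells, with Cdkn1a (the cell cycle inhibitor p21) at 3.05 (1.5 to 6.99) in control and 2.57 (1.53 to 4.57) in IR.

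The second comparison set the cells against Foxp3 T cells (37 control and 105 IR cells, with a median of 2834 and 2493 UMIs), which share the activation markers. Regulatory transcripts were lower in the activated helper cells, Il17a, Il17f and Tcf7 were higher, and Ctla4 was intermediate between resting and Foxp3 T cells. Of 5966 genes tested, 76 (1.27%) were at least 2-fold higher in both libraries and 123 (2.06%) lower, 3.34% in all. With TMM scaling 144 were higher and 64 lower, so the balance of the 2 directions depended on the scale. The median gene was at a log2 ratio of -0.30 in control and 0.00 in IR.

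Of 11 regulatory genes outside the rule, 9 were at least 2-fold lower in both libraries and none higher, with a median log2 ratio of -2.19 and -2.32, and the count was also 9 with TMM scaling. The cells were chosen without Foxp3 and Ikzf2, so this is a description of what the choice left. Il2ra, the high-affinity chain of the interleukin-2 receptor, had 18 and 29 UMIs against 29 and 61 in the much smaller Foxp3 class, ratios of 0.233 (0.122 to 0.434) and 0.171 (0.106 to 0.271). Tnfrsf9 had ratios of 0.148 and 0.164, and Tnfrsf18 (GITR) 0.306 and 0.366. Il10, a suppressive cytokine, had 1 and 3 UMIs against 14 and 27, ratios of 0.0268 (0.000634 to 0.176) and 0.0400 (0.00778 to 0.130). Lrrc32, the docking protein for latent TGF-beta, Itgae, Capg, Nrp1 and Ikzf4 were the other members of the group. Ctla4 had ratios of 0.363 (0.280 to 0.471) and 0.541 (0.468 to 0.627), so it passed 2-fold in control alone.

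Type 17 genes went the other way. Of 6 tested, Il17a, Il17f, Tmem176a and Tmem176b were at least 2-fold higher in both libraries, and Ccr6, a chemokine receptor that regulatory cells share, was lower with 5 and 14 UMIs against 5 and 27 (no gene was lower with TMM scaling). Il17a had 54 and 72 UMIs against 1 and 0, a ratio of 20.3 (3.49 to 815) in control and at least 8.65-fold higher in IR. Tmem176b and Tmem176a, membrane proteins linked to type 17 cells and to myeloid cells, had 43 and 56, and 51 and 66 UMIs. Tcf7 had 61 and 296 UMIs against 6 and 40, ratios of 3.82 (1.66 to 10.8) and 2.67 (1.91 to 3.81), and Satb1, a chromatin organiser, 6.18 and 2.68.

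**Figure D3:**
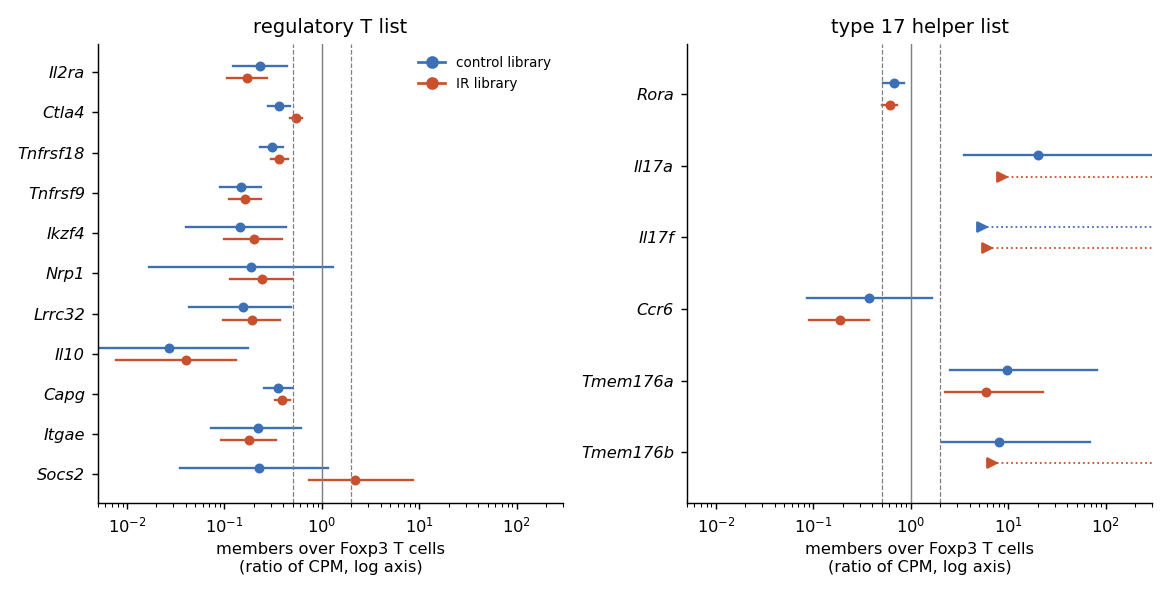
Ratio of CPM in activated helper T cells over Foxp3 T cells (horizontal log axis) for 11 regulatory genes and 6 type 17 genes, with control in blue and IR in red, drawn with 95% counting intervals, triangles at the ratio against a floor of 3 UMIs where Foxp3 T cells had no UMI, and dashed lines at 2-fold. Regulatory genes lay to the left of 1 apart from Socs2 in IR, with 9 of 11 past 2-fold in both libraries, and Il17a, Il17f, Tmem176a and Tmem176b lay to the right.

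Further genes by rank against Foxp3 T cells were Il1r2 (a decoy receptor of interleukin-1), Penk (proenkephalin), Gzmb, Ly6a, Lamc1, Tmem158 and Gm28112 on the low side. Gm28112 lies within Ikzf2 on the same strand, and the activated helper cells were chosen without Ikzf2 UMIs. Its low ratio is therefore not independent of the rule. Penk had 7 and 10 UMIs against 30 and 49, ratios of 0.0876 and 0.0736. Il1r2 had 1 and 9 UMIs against 7 and 74, ratios of 0.0536 (0.00119 to 0.418) and 0.0438 (0.0193 to 0.0878). On the high side were Serpinb1a, Slfn1, Ms4a4c, C1qa, C1qc, Apoe and H2-Aa. C1qa, C1qc, Apoe and H2-Aa are genes of macrophages and other antigen-presenting cells, and C1qa was found in only 6 control and 2 IR cells with up to 51 and 67 UMIs in a cell.

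The third comparison was with effector CD8 T cells, the other antigen-experienced T cells of the gland, taken as T cells with a Cd8 UMI, no Cd4 or Foxp3 UMI and at least 3 UMIs over 8 effector genes (215 control and 444 IR cells, with a median of 4396 and 3349 UMIs). Type 17 and type 2 transcripts were higher in the activated helper cells, and part of the cytotoxic and type 1 transcripts were lower. Of 7734 genes tested, 323 (4.18%) were at least 2-fold higher in both libraries and 128 (1.66%) lower, 5.83% in all, and TMM scaling gave 231 and 205. The 323 include Cd4, which the CD8 class lacks by its rule. The median gene was at a log2 ratio of -0.01 in control and 0.24 in IR.

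Areg, an epidermal growth factor receptor ligand made by type 2 and regulatory cells, had 17 and 42 UMIs against 1 and 1, ratios of 40.9 (6.40 to 1708) and 67.7 (11.5 to 2739). Tnfsf11 (RANK ligand) had 17 and 62 UMIs in 12 and 35 cells against 0 and 2, at least 13.6-fold higher in control and 50.0-fold (13.3 to 422) in IR. Ctla4 had ratios of 9.02 (6.06 to 13.8) and 7.69 (6.17 to 9.66). Of 7 cytokine genes of helper cells tested 3 were higher (Il17a, Tnf and Tnfsf11) and none lower. Type 17 genes were higher for 5 of 5 tested and type 2 genes for 3 of 3 (Gata3, Ccr4 and Areg). Type 2 genes were not higher than in Foxp3 T cells. There, of 3 tested, none was higher and Areg was at least 2-fold lower in both libraries, against 2.06% of all genes. The median log2 ratio of the 3 was -0.78 in each library. Gata3, the type 2 transcription factor, was found in 17 control and 53 IR cells and had ratios of 2.80 (1.57 to 5.06) and 3.16 (2.22 to 4.55). In the follicular helper list 5 of 10 genes were higher. Cd200, a surface glycoprotein of follicular helper cells, had ratios of 8.82 (2.33 to 49.2) and 9.14 (3.79 to 26.6), and St8sia1, a sialyltransferase, 3.01 and 2.94. P2rx7, an ATP-gated channel, Nav2 and Nebl were also among the highest ranks, with Nav2 in 12 control and 36 IR cells.

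The type 1 genes Tbx21, Eomes, Il12rb2 and Il18rap were at least 2-fold lower in both libraries and Id2 was higher. Eomes, a transcription factor of cytotoxic cells, had 1 and 1 UMI in the activated helper cells against 65 and 115, ratios of 0.0370 (0.000922 to 0.213) and 0.0140 (0.000352 to 0.0797). Cytotoxic genes were lower for 3 of 6, which were Prf1 (perforin), Klrk1 and Klrc1 (natural killer receptors). The CD8 class was chosen by Ccl5, Nkg7, Gzmk, Gzma, Gzmb, Cxcr3, Klrd1 and Ctsw, genes of cytotoxic and type 1 cells. Lower cytotoxic and type 1 transcripts in the activated helper cells are therefore not independent of that choice. The ranked genes on the low side were Gzmm (a granzyme), Ly6c1, Ly6c2, Ada, Xcl1 (a chemokine of CD8 T cells), Dlg5, 1700025G04Rik and Slc11a2 beside Eomes and Klrc1. Against Foxp3 T cells, of 7 cytotoxic genes tested Ccl4 and Ccl5 were higher and Gzmb was lower, with a median log2 ratio of 1.32 in control and 0.85 in IR. Of all genes tested against Foxp3 T cells 1.27% were higher and 2.06% lower. The top 5 activated helper cells held 96.8% and 93.9% of their Ccl5 UMIs. After thinning Ccl5 was found in 8.04% and 4.01% of the activated helper cells and in 10.8% and 1.96% of Foxp3 T cells.

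Helper T cells take on types that differ in transcription factor and cytokine, and the cells were sorted by whether they had a UMI of the defining genes of each. Type 1 genes (Tbx21, Ifng and Cxcr3) were found in 19 control cells (16.7%, 10.3 to 24.8) and 41 IR cells (13.5%, 9.89 to 17.9), against 1.16% and 1.57% of B cells. Type 2 genes (Gata3, Il4, Il5 and Il13) were found in 18 (15.8%, 9.63 to 23.8) and 53 (17.5%, 13.4 to 22.2), against 0.517% and 0.392% of B cells. The type 2 share was carried by Gata3, which was in 17 and 53 of these cells, and Il4, Il5 and Il13 had no UMI in the IR cells. Type 1 genes were found in 16.2% and 15.2% of Foxp3 T cells and in 39.5% and 33.1% of effector CD8 T cells. Type 2 genes were found in 32.4% and 22.9% of Foxp3 T cells and in 8.37% and 8.78% of effector CD8 T cells. Effector CD8 T cells had a higher median depth. After thinning the type 1 shares were 8.93% and 5.35% in the activated helper cells and 13.0% and 10.6% in effector CD8 T cells. Their intervals overlapped in both libraries. Foxp3 T cells had 13.5% and 5.88%. The type 2 shares were then 7.14% and 6.69% in the activated helper cells and 2.79% and 2.25% in effector CD8 T cells. Their intervals overlapped in control alone. Foxp3 T cells had 8.11% and 9.80%. In the activated helper cells the intervals of both types overlapped between the control and the IR library.

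Follicular helper genes (Cxcr5, Bcl6, Il21, Tox2 and Sh2d1a) were found in 32 control cells (28.1%, 20.1 to 37.3) and 115 IR cells (38.0%, 32.5 to 43.7). B cells share some of these genes and had a UMI in 27.8% and 25.6% of cells, so the control share was at the level of B cells. After thinning to 1000 UMIs the shares were 10.7% (5.66 to 18.0) in control and 20.4% (16.0 to 25.4) in IR for the activated helper cells, and 11.5% and 12.4% for B cells. Foxp3 T cells had these genes in 21.6% and 46.7% of cells, and in 16.2% and 14.7% after thinning. Bcl6, the transcription factor that directs follicular helper cells, had 2 UMIs in control and 26 in IR, and Tox2 had 3 UMIs in 2 cells and 31 in 24 cells. Tox2 had no UMI in effector CD8 T cells of either library.

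The type 17 transcripts were concentrated. Il17a, Il17f or Il22 was found in 10 control cells with 97 UMIs and in 14 IR cells with 140 UMIs, and in resting cells, Foxp3 T cells, effector CD8 T cells and B cells there were between 0 and 1 such cells per library. T cells outside these classes also had the transcripts. All T cells other than the activated helper cells held 90 Il17a UMIs in 25 control cells and 65 in 14 IR cells, at 20.4 and 7.99 CPM, and 82 and 58 of these UMIs lay in cells with a UMI of the gamma-delta genes Cd163l1 or Trdc. The top 5 cells held 75.9% of the Il17a UMIs in control and 91.7% in IR, with 12 and 27 UMIs in the highest cell. Il22 had 18 UMIs in 4 IR cells and none in the control cells. Ccl5, a chemokine of effector T cells, was concentrated in the same manner, with 249 UMIs in 13 control cells and 311 in 23 IR cells and 96.8% and 93.9% of them in the top 5 cells. Ifng had 15 UMIs in 7 cells and 32 in 10. The class averages of Il17a, Il17f, Il22, Ccl5 and Ifng therefore rest on few cells, while Ltb had 145 and 761 UMIs.

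At this depth per cell, a cell without a UMI of a type cannot be called negative for it.

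**Figure D4:**
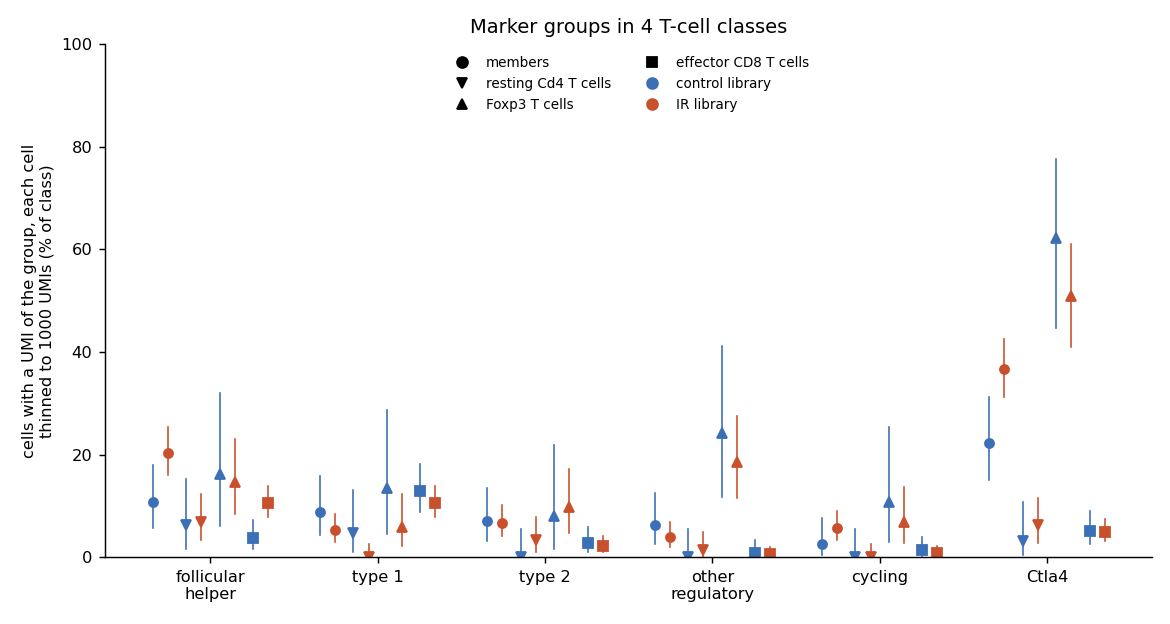
Percentage of cells (vertical axis), each thinned to 1000 UMIs, with a UMI of the genes of 6 groups in activated helper, resting Cd4, Foxp3 and effector CD8 T cells of the control and the IR library, with 95% Clopper-Pearson intervals. The activated helper cells had Ctla4 in 22.3% and 36.8% of cells, between resting (3.12% and 6.25%) and Foxp3 T cells (62.2% and 51.0%).

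Genes outside the rule whose pattern was most like that of the markers were ranked by the smaller of the 2 libraries' ratios of the activated helper cells over all other T cells. They were Il17f, Sostdc1, Tnfsf11, C1qc, Il17a, Ccr4, C1qa, Cd200, Tox2 and Cd40lg. Tnfsf11 had 41.1 and 63.2 CPM against 4.77 and 4.42 CPM in other T cells, ratios of 8.62 (4.27 to 17.2) and 14.3 (9.32 to 22.2). Ccr4, a homing receptor of skin and type 2 cells, had ratios of 9.68 (3.68 to 25.1) and 5.8 (3.16 to 10.5), and Cd200 5.09 (2.24 to 10.9) and 4.78 (3.04 to 7.41). Cd40lg had ratios of 4.38 (1.54 to 11.1) and 4.56 (2.89 to 7.09). Sostdc1, a secreted inhibitor of BMP and Wnt signals, had 50 UMIs in 5 control cells, 26 of them in 1 cell, and 2 UMIs in 1 IR cell, so its ratio in IR rested on 1 cell. C1qa and C1qc rested on the few cells with macrophage transcripts.

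Ligands and receptors that pair with the markers were looked up in other cells of the gland. Cd86, a ligand of Cd28 and Ctla4, had 361 and 335 CPM in B cells against 41.1 and 15.3 in the activated helper cells. Icosl, the ligand of Icos, had 12.6 CPM in the B cells of each library, and in cells with dendritic genes it had 7.87 CPM in control, from 1 UMI, and 49.5 CPM in IR, from 10 UMIs in 6 of 35 cells. Cd274 (PD-L1) was detected in 16.7% of 66 (control) and 11.8% of 34 (IR) cells with endothelial genes, in 15.8% of 19 (control) and 20% of 35 (IR) cells with dendritic genes, and in 4.78% and 9.01% of B cells. Cd40, the receptor of Cd40lg, had 48.9 and 53.8 CPM in B cells and was detected in 7 of 19 (control) and 7 of 35 (IR) cells with dendritic genes. Tnfsf4, the ligand of Tnfrsf4, had 6 and 4 UMIs in the activated helper cells themselves (14.5 and 4.08 CPM), and Tnfrsf8, the receptor of Tnfsf8, had 0 and 1. In cells with dendritic genes Tnfsf4 had 31.5 CPM in control, from 4 UMIs in 1 cell, and 9.91 CPM in IR, from 2 UMIs in 1 cell.

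Receptor V segments were rarely captured by this assay. Of 35 beta-chain V segments in the files, 1 was detected in 5 control and 19 IR cells and none in 109 and 283. Alpha-chain segments were found singly in 16 and 34 cells, with 12 and 21 different segments. No statement on clones can be drawn from so few cells.

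The last comparison, between the IR and the control library, asked how the same cells differed 10 months after irradiation. Division genes and Cd69 were higher in the IR cells, and 4 heat shock genes, S100a4, S100a6 and Lgals3 were lower. Fos, Jun, Ltb and Tcf7 were also higher, but not past 2-fold with TMM scaling. Of 4959 genes tested, 645 (13%) were at least 2-fold higher in the IR library and 87 (1.75%) lower. With TMM scaling 347 were higher and 166 lower, and the median gene moved from a log2 ratio of 0.34, a ratio of 1.27, to 0.10. The control UMIs held larger shares of secretory and haemoglobin transcripts, and with these, the mitochondrial transcripts and Gm42418 left out of the totals 502 genes were higher and 96 lower, with the median gene at 0.24.

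Division genes made up 7 of the 8 highest ranked ratios. The first rank was S100a9, a neutrophil transcript, at 25.3 (4.37 to 1016), with all 60 IR UMIs in 1 cell. Of 11 proliferation genes tested 10 were at least 2-fold higher in IR, with a median log2 ratio of 2.52. Mki67, a marker of dividing cells, had 3 UMIs in 2 control cells and 127 in 12 IR cells, a ratio of 17.9 (5.97 to 87.7). Tpx2, Ccnb1, Cdca8, Cdca3, Rrm2 and 2810417H13Rik, which serve the mitotic spindle, mitosis and DNA replication, were the other ranked genes with this pattern, with ratios from 12.9 (3.41 to 109, Rrm2) to 21.5 (3.69 to 866, Tpx2). The transcripts sat in few cells. At least 3 UMIs of Mki67, Top2a, Birc5 and Ube2c were found in 1 control cell (0.877%, 0.0222 to 4.79) and 13 IR cells (4.29%, 2.30 to 7.23), and these 13 cells held 96.5% of those UMIs in IR. They had a median of 13599 UMIs against 2516.5 in the other IR cells, and none was among the 6% of cells that scored highest as doublets. The intervals of the 2 shares overlapped. Without the dividing cells 422 of 4356 genes were higher in IR. Foxp3 T cells had 3 (8.11%) and 9 (8.57%) dividing cells by the same count, and effector CD8 T cells 3 and 4.

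The heat shock genes Hspa1a, Hspa1b, Hsp90aa1 and Hsph1 were lower in the IR cells. They were the 4 of 20 dissociation and heat stress genes that were at least 2-fold lower, against 1.75% of all genes tested. The 2 that were higher (Fos and Jun) made up no larger share than the 13% of all genes tested. The list had a median log2 ratio of -0.38, and 8 were lower and none higher with TMM scaling. Hspa1a (an inducible HSP70) had 251 UMIs in 32.5% of the control cells and 76 UMIs in 11.9% of the IR cells, a ratio of 0.128 (0.0975 to 0.166). Hsp90aa1 had 1887 and 677 CPM, a ratio of 0.359 (0.323 to 0.399), and was found in 95.6% and 75.2% of the cells. Hsph1 and Hspa1b had ratios of 0.295 and 0.249. Lower levels in IR were seen in other classes too. Hspa1a had ratios of 0.615 in resting cells, 0.0635 in Foxp3 T cells, 0.403 in effector CD8 T cells and 0.482 in B cells. Hsp90aa1 had ratios of 0.364, 0.534, 0.378 and 0.450 in these classes in the same order, and Hsph1 had 0.154, 0.238, 0.193 and 0.166. Glands were dissociated with enzymes before the libraries were made, and a difference between the 2 preparations cannot be told apart from one between the conditions.

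The immediate early genes Fos and Jun were higher, with 130 and 275 CPM of Fos, a ratio of 2.11 (1.57 to 2.88), and 210 and 473 CPM of Jun, a ratio of 2.25 (1.79 to 2.86). Neither passed 2-fold with TMM scaling. Their ratios were larger in resting cells (4.23 and 5.64) and effector CD8 T cells (6.65 and 5.99). Egr1, another gene of this kind, was at 74.9 CPM in control and 32.6 CPM in IR, a ratio of 0.435 (0.257 to 0.738).

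Cd69, which holds T cells in tissue and follows activation, had 47 UMIs in 26.3% of the control cells and 345 in 48.5% of the IR cells, a ratio of 3.10 (2.28 to 4.29). After thinning it was found in 8.04% and 27.8% of the cells. B cells had a Cd69 UMI in 26.4% and 47.8% of cells, and the IR over control ratio was 6.69 in resting cells, 2.04 in Foxp3 T cells, 3.50 in effector CD8 T cells and 2.35 in B cells. Cd69 was therefore higher in the IR library in every class examined. Ltb (lymphotoxin beta), which organises lymphoid tissue, had 350 and 775 CPM, a ratio of 2.21 (1.85 to 2.66), and 2.13, 1.35, 2.54 and 1.79 in those classes. Tcf7 had 147 and 302 CPM, a ratio of 2.05 (1.55 to 2.74), and 1.81, 2.93, 1.43 and 2.07 in those classes. With TMM scaling Cd69 remained past 2-fold in the activated helper cells, and Ltb and Tcf7 did not. Among memory and residence genes 1 of 20 (Cd69) was at least 2-fold higher, and among helper cytokine genes 1 of 7 (Ltb). Among naive and recirculating genes 2 of 15 were higher (Tcf7 and Dapl1). These shares lay near or below the 13% of all genes tested.

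The calcium-binding proteins S100a4 and S100a6 and the galectin Lgals3 were lower. S100a4 had 136 UMIs in 28.9% of the control cells and 81 in 9.90% of the IR cells, a ratio of 0.251 (0.188 to 0.333). S100a6 had a ratio of 0.299 (0.240 to 0.373), and Lgals3 had 137 UMIs in 26 cells and 67 in 21 cells, a ratio of 0.206 (0.152 to 0.278). Of 20 memory and residence genes these 3 were lower and 1 (Cd69) was higher, against 1.75% and 13% of all genes tested. The median log2 ratio of the list was -0.01, against 0.34 for all genes tested. In effector CD8 T cells S100a6 and Lgals3 had ratios of 0.980 and 3.14, and in resting cells S100a4 had 1.42. These are only some of the pairs of gene and class. Whether the lower levels were particular to the activated helper cells was not tested.

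**Figure D5:**
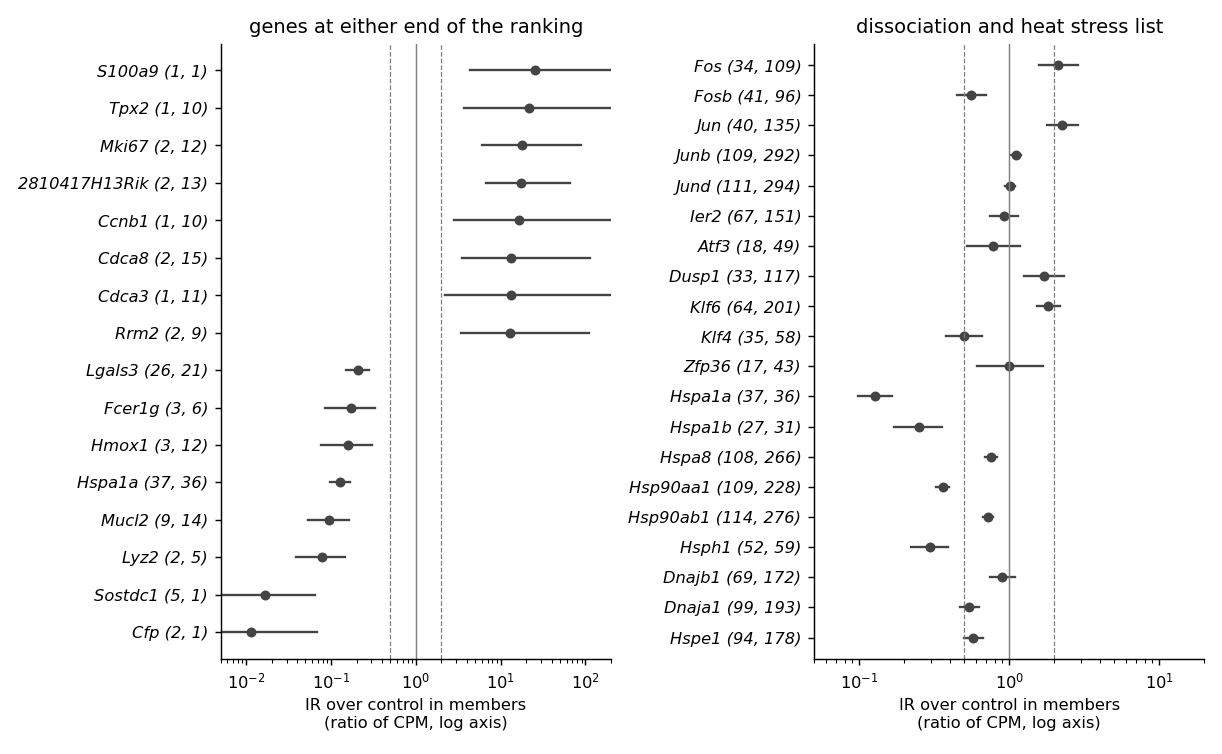
Ratio of CPM in IR over control activated helper T cells (horizontal log axis) for the 16 genes with the highest and lowest ratios and for 20 dissociation and heat stress genes, with 95% counting intervals and, in brackets, the control and IR cells with a UMI. The division genes lay to the right with 1 or 2 control cells each, and Hspa1a, Hspa1b, Hsp90aa1 and Hsph1 lay to the left.

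Several of the lowest ratios rested on 1 or 2 cells. Cfp had 37 UMIs in control, 29 of them in 1 cell, and 1 in IR. Lyz2 had 65 UMIs in 2 control cells and 12 in 5 IR cells, Fcer1g 34 and 14, and Hmox1 35 and 13, and these are genes of macrophages and other myeloid cells. Mucl2, a secretory gene, had 75 UMIs, 63 of them in 1 cell, and 17. The whole macrophage and dendritic list summed to 535 UMIs in control and 615 in IR, with 218 and 392 of Cst3, its most abundant gene, and Itgax, Flt3 and Zbtb46 at 0 in control and Adgre1 at 0 in IR. The B and plasma cell list summed to 410 and 764 UMIs, with 204 and 382 of Cd74, and Ighd, Iglc2 and Igha at 0 in control. In the macrophage and dendritic list 4 of 6 genes were lower in IR, against 1.75% of all genes tested. Without cells with 3 or more macrophage UMIs the log2 ratio of Fcer1g, 1 of these 4, went from -2.53 to 0.27.

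None of 9 p53 targets was past 2-fold between the IR and the control cells, and Cdkn1a had 145 and 109 CPM, a ratio of 0.752 (0.543 to 1.05). None of 8 type 1, 3 type 2 or 5 regulatory genes was past 2-fold. Of 11 interferon-stimulated genes Irf1 and Bst2 were higher, against 13% of all genes tested, with ratios of 2.38 (1.41 to 4.26) and 2.31 (1.37 to 4.13), while TMM scaling gave 1 higher and 2 lower. Of 5 type 17 genes Il17f was lower, at 0.490 (0.320 to 0.755), and 4 were lower with TMM scaling. Il17f was found in only 8 control and 7 IR cells, and the top 5 cells held 90.7% and 96% of its UMIs. In the follicular helper list Tox2, St8sia1 and Il6st were higher and Sostdc1 was lower of 7 tested, with a median log2 ratio of 0.75. Tox2 had a ratio of 4.36 (1.36 to 22.3). Among receptors, Ctla4 had 290 and 476 CPM, a ratio of 1.64 (1.34 to 2.02), and Lag3 had 5 and 32 UMIs, a ratio of 2.70 (1.04 to 8.87).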

How the data were processed

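Single-cell RNA was measured with the 10x Chromium v3 chemistry in 2 libraries of dissociated parotid glands, 1 per condition. The authors assigned reads to barcodes and counted them with Cell Ranger 3.0.1 on mm10 (GRCm38), and Seurat 3 is also named in the submitters' processing notes. The deposited values are raw UMI counts per gene and barcode, with 22707876 UMIs over 5550 barcodes in control and 23890757 over 7793 in IR.

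The quality limits of the authors' methods were applied, so that a kept cell had 200 genes or more and no more than 5% mitochondrial UMIs. How barcodes were called as cells is not given in the sources used here. Rows with the same symbol were summed, which left 48703 symbols of 48825 features. No doublets were removed in the main setting. Counts of a class were summed and scaled to CPM. Shares have Clopper-Pearson intervals, sums exact Poisson intervals and ratios exact conditional binomial intervals, all at 95% and covering counting error only. Where a class had no UMI, the bound was computed against 3 UMIs in that class. Genes with at least 30 UMIs over the classes and libraries compared, and for IR over control at least 1 in each library, were counted as higher or lower past 2-fold, in both libraries for classes. The genes of the members' rule were left out, as were Cd4 against resting cells and the 8 effector genes against effector CD8 T cells, where Cd4 was kept. For shares compared across depths each cell was thinned to 1000 UMIs, which left out 2 control and 4 IR activated helper cells.

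The members and the 29 gene lists (351 of 353 genes were in the files) were chosen with earlier results of these data known. Genes were named from these lists, from the 8 highest and lowest ratios of IR over control, from the 10 highest and lowest for each class by the smaller of the 2 libraries' ratios, and from the 10 genes most like the markers. The positions are those of GENCODE M21 on GRCm38, where 41341 feature identifiers were found. The steps ran in Python 3.11.15 with numpy 2.4.6, scipy 1.17.1, pandas 2.3.3 and matplotlib 3.10.9, doublet scores came from Scrublet in scanpy 1.11.5, and TMM factors came from edgeR 4.0.16 in R 4.3.3, which was used for nothing else. The ratios and the thinning were tested on simulated data. A few genes of the lists, and groups that hold them, are not reported here. Other limits on mitochondrial transcripts, genes, markers, doublets and low counts, other scalings and sizes of ratio were tried.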

Additional observations from a re-analysis of the deposited data

Results flagged for a closer look

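The following ratios of IR over control in the activated helper T cells went the other way in another T-cell class, and none of these differences was tested. Against effector CD8 T cells they were Mki67 (17.9, and 0.462 in the CD8 cells), Rrm2 (12.9 and 0.269), Tyms (9.14 and 0.453), Lgals3 (0.206 and 3.14) and Lyz2 (0.0779 and 30.2). Against Foxp3 T cells they were Mki67 (17.9 and 0.303), Top2a (7.28 and 0.329) and Ube2c (5.72 and 0.280). Against resting Cd4 T cells they were Apoe (0.492 and 12.4) and Egr1 (0.435 and 6.74). At least 3 UMIs of Mki67, Top2a, Birc5 and Ube2c were present in 1 control and 13 IR activated helper cells, in 3 and 4 effector CD8 T cells and in 3 and 9 Foxp3 T cells. Lyz2 came from 2 control and 5 IR cells, and 1 cell held 81 of the 167 control and 1 cell 161 of the 195 IR Apoe UMIs.

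Cells over the mitochondrial limit that met the rest of the rule were left out of every comparison above and entered only where the mitochondrial limit was raised or dropped. There were 33 of them in control and 110 in IR.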

How the results depend on the processing

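No paired analysis was possible because each condition had 1 library. Beside 3.37% in control and 5.73% in IR, the share of kept cells was 4.19% and 6.62% with at least 500 genes per cell, 5.27% and 9.04% with a marker sum of at least 2, 2.61% and 4.24% with at least 4, 1.04% and 1.66% with a Cd4 UMI required, and 1.76% and 2.96% when the rule was applied to cells thinned to 1000 UMIs. Over T cells it was 9.01% and 9.94%. The IR share was the larger in each of these. Counts are given as genes higher and lower, past 2-fold where no other size is named. For IR over control (645 and 87) TMM factors gave 347 and 166, at least 10 UMIs 1479 and 302, at least 60 UMIs 264 and 54, 1.5-fold 1598 and 270, 3-fold 159 and 33, and thinned cells 136 and 45, and a required Cd4 UMI gave 396 higher. Against resting cells (270 and 25) TMM factors gave 38 lower, at least 10 UMIs 88 lower, at least 60 UMIs 163 and 6, 1.5-fold 710 and 102, 3-fold 82 and 0, and thinned cells 133 higher. Against Foxp3 T cells (76 and 123) TMM factors gave 144 and 64, a marker sum of at least 2 gave 196 lower, a required Cd4 UMI 75 lower, at least 10 UMIs 257 lower, at least 60 UMIs 41 and 57, 1.5-fold 249 and 378, 3-fold 27 and 34, and thinned cells 35 and 38. Against effector CD8 T cells (323 and 128) TMM factors gave 205 lower, at least 10 UMIs 566 higher, at least 60 UMIs 187 higher, 1.5-fold 765 and 352, 3-fold 134 and 42, and thinned cells 166 and 64. Limits on UMIs and on the size of the ratio change these counts by construction. For the other settings the cause was not tested.

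Chosen after seeing the data, leaving out dividing cells gave 422 genes higher in IR. Leaving out cells with Il2ra, Ikzf4 or Gpr83 UMIs gave shares of 2.75% and 5.05% and 372 genes higher in IR. Of 2160 values of named genes over all alternatives, 1920 stayed at least 2-fold in the same direction, 236 kept the direction under 2-fold and 4 reversed. The reversed values were log2 ratios of IR over control. They went from 3.69 to -1.99 for Rrm2 without dividing cells, from -2.53 to 0.27 for Fcer1g and from -2.67 to 2.15 for Hmox1 without cells with 3 or more macrophage UMIs, and from -1.25 to 0.65 for Pxdc1 without cells with Il17a, Il17f or Il22. Fewer cells remain in each of these by construction. Genes under 30 UMIs were too shallow to be counted, and the spread between mice is unknown.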

Other observations

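In the comparison of IR with control 13% of all genes tested were higher and 1.75% lower, so that 1 gene higher in a list of 6 to 12 is near that share. Against resting cells 4.6% of all genes tested were higher in both libraries and 0.426% lower. Of 9 genes associated with anergy and folate receptor 4, Ikzf1 was at least 2-fold higher and Lgals3 lower in IR, and against resting cells Ndrg1 and Lgals3 were higher in both libraries. Of 6 genes associated with senescent T cells, Casp1 was higher in IR with 8 and 43 UMIs and a ratio of 2.27 (1.05 to 5.58), and Sostdc1 was lower. Against resting cells Cdkn1a, Cd44 and Id2 of that list were higher in both libraries. Of 10 genes of chemokine receptors and egress, S1pr4 was lower in IR, and Cxcr3, Cxcr4, Cxcr6 and Ccr2 were higher than in resting cells in both libraries. Of 12 receptor and CD3 genes Cd247, the zeta chain, was higher in IR with 31 and 177 UMIs and a ratio of 2.41 (1.64 to 3.65). Of 13 secretory and duct genes 7 were lower in IR, as were all 4 haemoglobin genes tested, against 1.75% of all genes tested. Of the 23640 Bpifa2 UMIs of the control cells, 6665 and 5560 lay in 2 cells and 56.6% in the top 5 cells, against 24.3% in the top 5 IR cells, and the median cell had 81.5 and 69 Bpifa2 UMIs.

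Among genes with few UMIs, the cytokine gene Il2 had 2 UMIs in control and 25 in IR, a ratio of 5.27 (1.31 to 45.9), and the transcription factor gene Bcl6 had a ratio of 5.48 (1.37 to 47.7). Both were below the 30 UMIs required for a count.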
